A study of Caenorhabditis elegans with 4 samples.

Results

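The wide JUN-1 peaks were the 470 regions of at least 700 bp in the combined peak list, which holds 4277 peaks in all. They were chosen by width alone, which is the end minus the start plus 1, on any chromosome. They made up 11.0% of the list (95% exact interval 10.1 to 12.0) and 28.7% of the bases it covers, 530064 of 1848107 bp. The other 3807 peaks are called narrower here. The lists come from chromatin immunoprecipitation and sequencing (ChIP-seq) of JUN-1 in Caenorhabditis elegans at L1, its first larval stage. The 4 libraries are 2 ChIP replicates and 2 inputs, and a peak list was analysed for each ChIP replicate and for both combined.

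All libraries came from hermaphrodites of strain OP234, with the allele unc119(ed3) and the transgene wgIs234. In the transgene the gene T24H10.7, which is jun-1, carries TY1, EGFP and FLAG tags, and unc119 is present as well. The transgene was made by recombineering and brought in by particle bombardment. ChIP used a goat antibody against EGFP, so it targeted the tagged protein and not the native one. Per the labels' protocols, worms grew at 20 degrees Celsius and were fixed in 2% formaldehyde. The stage label reads L1 26dC, which may name another temperature, so the growth temperature of these worms is uncertain. Whole larvae were used, so the lists do not say in which cells a region was bound. No control precipitation on untagged animals was analysed here. Nothing in the labels says whether the replicates came from separate cultures.

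JUN-1 is related to the c-Jun protein of mammals. Such basic leucine zipper proteins grip DNA as dimers, as Jun and Fos do in the AP-1 complex, and each dimer contacts a short site. A region called by ChIP-seq is usually wider than such a site, because sheared fragments extend to either side of it. Several sites close together, or bound fragments over a longer stretch, can be reported as a single wide region. AP-1 proteins in animals are known for responses to stress and growth signals.

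Each deposited peak has a position on build WormBase WS180 and a q-value, both set by the authors. Strength below is -log10 q, and a larger value is a stronger peak. Strength and width come from the same signal, so strength is described and not tested. Positions and neighbours come from the same peak calling and are described in the same way, with 95% intervals that cover counting error only. No p-value is given, because peaks of the same libraries are not replicates of each other. The intervals count each peak singly although many peaks lie close together, so whether they overlap is a description and no test. The combined list nearly repeats that of replicate 2. A replicate 2 peak with identical start, end and q existed for 404 of 470 wide peaks, or 86.0% (82.5 to 89.0), and for 3170 of 3807 narrower peaks, or 83.3% (82.0 to 84.4). The replicate 2 list is therefore no second observation of these regions. Read depth is unknown for all libraries.

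Width among the wide peaks ran from 700 to 8504 bp, with a median of 926 bp and a middle 50% between 794 and 1194.5 bp. Narrower peaks ran from 1 to 699 bp, with a median of 333 bp, so some were only a few bp wide. Of the wide peaks, 283 measured under 1000 bp, 117 from 1000 to under 1500 bp, 39 from 1500 to under 2000 bp, and 31 measured 2000 bp or more. Most wide peaks were thus only moderately wider than the limit, with a long tail of a few very wide regions. The peaks just inside the limit were IV:8233906-8234605 at 700 bp, II:1134749-1135451 at 703 bp and II:2973751-2974454 at 704 bp, with q of 2.40e-06, 2.92e-12 and 2.76e-38. Those just outside were I:3824156-3824854, I:12920549-12921247 and IV:4415266-4415964, each 699 bp, with q of 2.68e-28, 3.13e-12 and 7.00e-12. Regions on both sides of the limit overlapped in strength.

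The widest region was II:10541925-10550428, 8504 bp, with q = 4.64e-40 and rank 127 by q. The next were I:7079133-7084137 at 5005 bp and II:5335265-5339486 at 4222 bp, with ranks 24 and 35. IV:14619473-14623209 followed at 3737 bp, with q = 3.03e-12 and rank 1037, while the other 9 of the 10 widest ranked 127 or better. The others of the 10 widest were II:11633924-11637651, V:10714256-10717870, X:14790008-14793557, III:832864-836343, V:7727779-7730988 and X:6251734-6254894. These 6 measured 3161 to 3728 bp and ranked between 23 and 85. The 10 widest regions thus came from all chromosomes, and 3 of them from II.

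By q, wide peaks were mostly at the strong end of the list. Median strength was 16.9 in wide peaks and 6.05 in narrower peaks, and the median rank was 596 in wide peaks and 2327 in narrower peaks. Divided by width, the order was the other way. Median strength per kb of width was 16.6 in wide peaks and 21.6 in narrower peaks. In the replicate 1 list it was 15.1 in wide peaks and 19.0 in narrower peaks. Width also sets the classes, so dividing by it favours the narrower peaks in either list. The order per kb is therefore a description, and nothing is concluded from it. Among the strongest 25% of the list were 320 of 470 wide peaks, or 68.1% (63.7 to 72.3), and 750 of 3807 narrower peaks, or 19.7% (18.4 to 21.0). All of the 25 strongest peaks were wide, as were 45 of the 50 strongest, 79 of the 100 strongest and 212 of the 500 strongest. The strongest narrower peak was X:806424-806977, 554 bp wide, at rank 29, and the next was V:6000182-6000876 at rank 33. The second of these measured 695 bp, close to the limit.

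**Figure D1:**
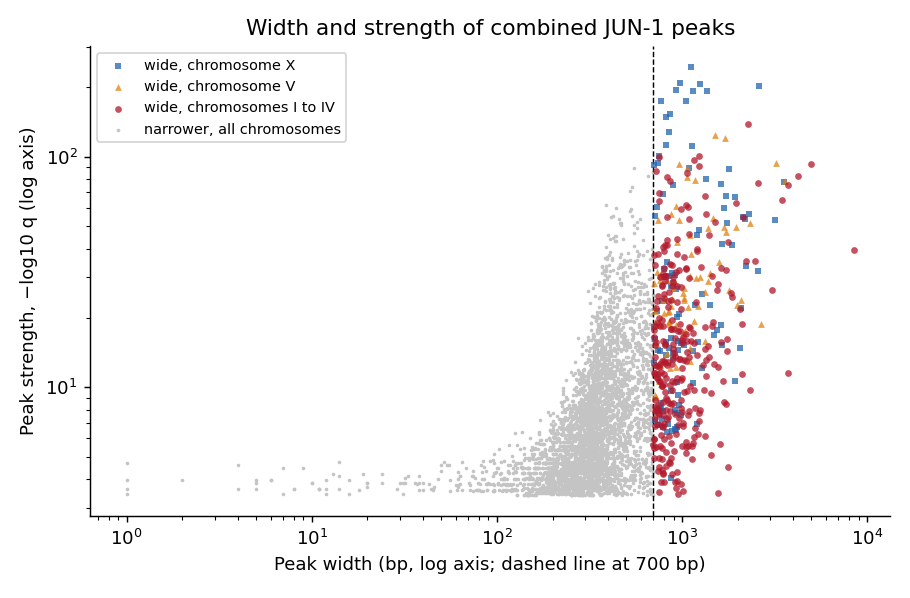
Width in bp and strength as -log10 q of all 4277 combined peaks, both on log axes, 1 point per peak. Wide peaks lie right of the dashed line at 700 bp, and the points above a strength of 100 are all wide, and 15 of the 20 are on X.

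Median strength was higher in the wider classes. It was 14.1 in the 283 peaks from 700 to under 1000 bp, 17.6 from 1000 to under 1500 bp, 28.1 from 1500 to under 2000 bp and 51.6 in the 31 peaks of 2000 bp or more. Within the wide peaks, width followed strength only loosely, with a Spearman rho of 0.28 over 470 peaks. Over the 3807 narrower peaks rho was 0.55, and over all 4277 peaks it was 0.61. Each class spans only part of the widths, which can lower its rho, so the classes are not compared by it. These values describe peaks that share their libraries and depth. The strongest regions of all were not the widest. The 10 strongest, all on X, measured 771 to 2590 bp, and 9 of them were under 1400 bp. The strongest, X:8035839-8036953, measured 1115 bp, and X:13700390-13701160, at rank 8, measured 771 bp.

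Not every wide peak was strong. Of the 470, 69 ranked below 2000. The 5 weakest were II:7544848-7545796, III:4194347-4195906, IV:3231674-3232421, II:7630832-7631846 and II:8128158-8129083, with q from 0.000227 to 0.00035. Of these, III:4194347-4195906 measured 1560 bp, and the others 748 to 1015 bp. III:4194347-4195906 and II:8128158-8129083 overlapped a replicate 1 peak with a smaller q, 4.15e-08 and 6.57e-05, and the others of the 5 overlapped none. Chromosome II was frequent among weak wide peaks, with 7 of the 10 weakest and 19 of the 50 weakest, against 77 of all 470.

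Chromosome V held few wide peaks for its many peaks. On V 80 of 1400 peaks were wide, or 5.71% (4.56 to 7.06). The share was 17.8% on II (14.3 to 21.7), 13.7% on X (11.4 to 16.3), 12.6% on I (10.0 to 15.6), 12.5% on IV (9.91 to 15.6) and 12.0% on III (9.38 to 15.0). The interval of V overlapped none of the others. Those of I, III, IV and X overlapped each other, and each of them overlapped that of II. The replicate 1 list, on its own, gave 5.04% on V (3.63 to 6.81) and 10.5% to 16.8% elsewhere. There X was highest, at 16.8% (13.4 to 20.6), and II was second, at 15.7% (11.4 to 20.9).

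**Figure D2:**
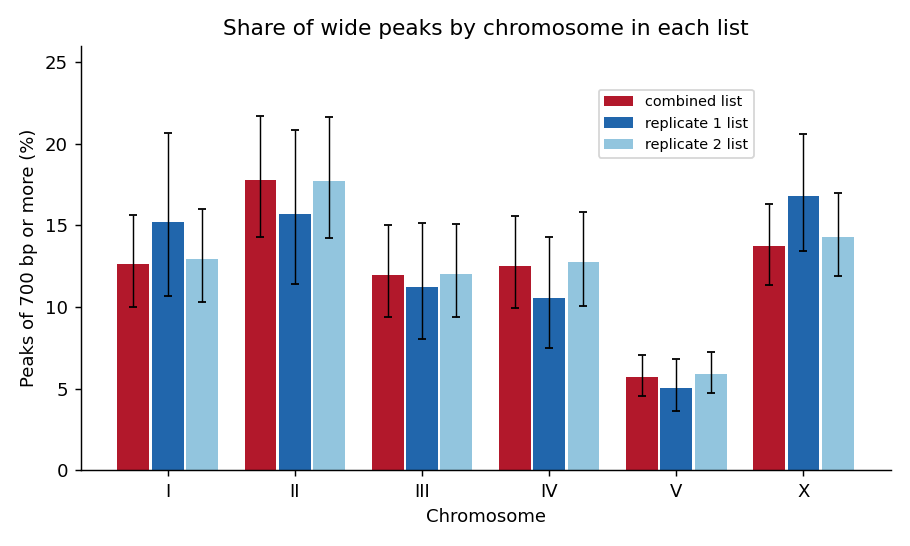
Share of peaks of 700 bp or more on each chromosome, in the combined, replicate 1 and replicate 2 lists, with exact 95% intervals. The bar of V stands between 5.04% and 5.88% in the 3 lists, and no other bar is below 10.5%.

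Read the other way, V gave 17.02% of wide peaks (13.7 to 20.7) and 34.7% of narrower peaks (33.2 to 36.2). The difference was -17.7 percentage points (95% Newcombe interval -21.1 to -13.7). With peaks closer than 5 kb counted as 1 cluster it was smaller, -10.4 points (-14.4 to -5.81). X gave 22.6% of wide peaks (18.9 to 26.6) and 17.5% of narrower peaks (16.3 to 18.8), a difference of 5.03 points (1.28 to 9.19). Without V the difference was 0.36 points (-4.18 to 5.29), and in the strongest 50% of the list it was 7.99 points (3.69 to 12.7). In the replicate 1 list it was 11.2 points (5.76 to 17.2) with all chromosomes and 6.76 points (0.352 to 13.7) without V, an alternative chosen after the data were seen. The value for X thus depended on the list and on whether V was counted. Chromosome II gave 16.4% of wide peaks (13.2 to 20.0) and 9.35% of narrower peaks (8.44 to 10.3). Counted per length, the wide peaks were spread more evenly than the list. There were 3.83 wide peaks per Mb on V and 4.02 to 6.18 on the other chromosomes, while the narrower peaks numbered 63.2 per Mb on V and 23.3 to 38.9 elsewhere. The length used is the span from the first to the last peak of the 3 lists.

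The wide peaks of V were strong ones. Their median strength was 24.2, against 22.7 on X, 14.9 on I, 13.7 on III, 13.3 on IV and 11.0 on II. The weakest of them, V:14999732-15000454, had q = 8.96e-10 and a strength of 9.05. On each of the other chromosomes the weakest wide peak had a strength between 3.46 and 4.19. No wide peak ranked below 2000 on V (0 of 80), while 23 of 77 did so on II, 14 of 72 on I, 11 of 65 on III, 11 of 70 on IV and 10 of 106 on X. In the part of the list below rank 2000, V held 728 of the 2208 narrower peaks and none of the 69 wide ones. The replicate 1 list showed a smaller gap for the weakest wide peak. Its strength there was 4.96 on V and between 3.62 and 4.36 on the other chromosomes.

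The share of wide peaks was lower on V than on the other chromosomes pooled in each 25% of the list by strength. In the strongest 25% of the combined list 76 of 348 peaks on V were wide, or 21.8% (17.6 to 26.6), against 244 of 722 on the other chromosomes, or 33.8% (30.3 to 37.4). In the second 25% by strength the share was 1.07% on V (0.293 to 2.72) and 12.8% elsewhere (10.4 to 15.5). In the next 25% it was 0% on V (0 of 345, interval up to 1.06) and 5.50% elsewhere (3.96 to 7.42), and in the weakest it was 0% on V (0 of 334, up to 1.10) and 2.32% elsewhere (1.36 to 3.69). Of the 80 wide peaks on V, 76 were thus in the strongest 25% of the list. The replicate 1 list showed the same order at its own ranks. Its shares from the strongest 25% to the weakest were 21.8%, 0%, 0.513% and 0% on V, against 33.1%, 12.4%, 5.30% and 3.80% elsewhere. Taken singly in the combined list, the chromosomes were less clearly apart from V. In the strongest 25% the intervals of I, II, III and IV overlapped that of V, and that of X did not. In the second 25% no interval overlapped that of V. In the next 25% only that of X did, and in the weakest those of I, III, IV and X did. Peaks on V were narrower as a whole, with a median of 282 bp, against 369.5 to 395 bp on the other chromosomes.

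**Figure D3:**
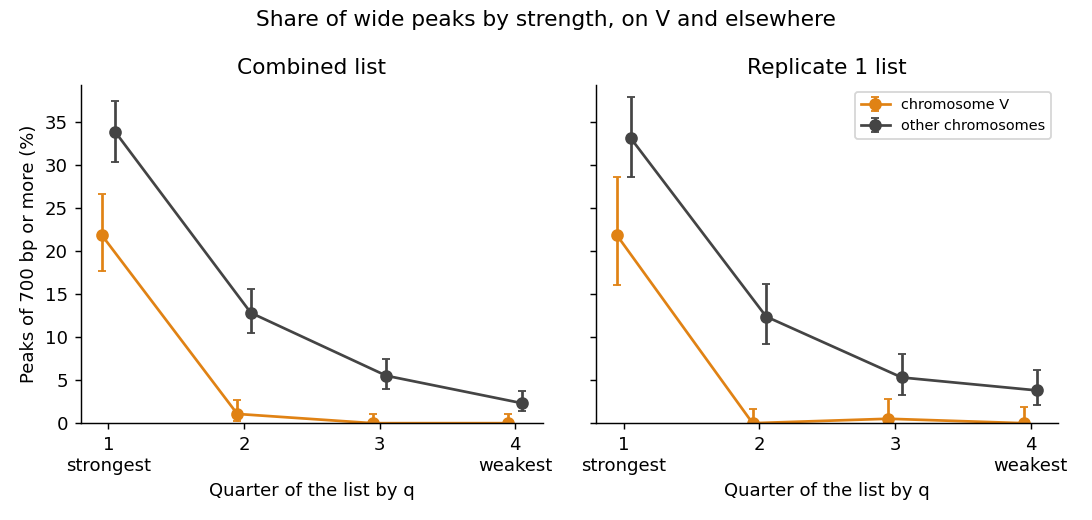
Share of peaks of 700 bp or more in 4 equal parts of the combined list (left) and of the replicate 1 list (right), ordered by q, for V and for all other chromosomes, with exact 95% intervals. On V the share is 21.8% in the strongest part of both lists and at most 1.07% in every other part.

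On X the share among the strongest 25% was 42.0% (34.9 to 49.3), with 81 of 193 peaks wide. It was 28.9% to 35.2% on I to IV, whose intervals overlapped that of X. In the second 25% chromosome II was highest, at 22.6% (14.6 to 32.4), and X had 10.4% (6.48 to 15.6). In the weakest 25% II again had the highest share, 6.78% (2.97 to 12.9), with 8 of 118 peaks, and X had 1 of 193.

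The arms of worm autosomes differ from the centres in gene content and recombination. The centre was taken as the central 50% of the span of each chromosome. Of 364 autosomal wide peaks 238 lay there, or 65.4% (60.3 to 70.3), against 1925 of 3140 autosomal narrower peaks, or 61.3% (59.6 to 63.0). The difference was 4.08 points, with an interval of -1.22 to 9.09 that includes 0. It was 9.99 points (3.84 to 15.7) with peaks closer than 5 kb counted as 1 cluster, wide where the cluster holds a wide peak. The centre share of wide peaks was 68.8% on V, 66.2% on II, 66.2% on III, 63.9% on I and 61.4% on IV, and all these intervals overlapped. On X it was 47.2% in wide peaks (37.4 to 57.1) and 49.8% in narrower peaks (45.9 to 53.6).

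The arms were not alike on every chromosome. V had 20 wide peaks on its left arm and 5 on its right, while its narrower peaks numbered 258 on the left and 198 on the right. II leaned the other way, with 6 wide peaks on the left arm and 20 on the right, and 57 and 89 narrower peaks. I had 13 wide peaks on each arm, and X had 27 on the left and 29 on the right. These counts are small and were not tested. The windows of 1 Mb with the most wide peaks were I:7000001-8000000 with 12 of 52 peaks and II:6000001-7000000 with 12 of 41. V:10000001-11000000 had 11, but of 104 peaks.

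Wide peaks had closer neighbours. Another combined peak lay within 5 kb, edge to edge, of 332 of 470 wide peaks, or 70.6% (66.3 to 74.7), and of 2011 of 3807 narrower peaks, or 52.8% (51.2 to 54.4). The difference was 17.8 points (13.3 to 22.1). The nearest peak was at a median distance of 1608 bp from wide peaks and 4431 bp from narrower peaks. The nearest peak lay under 300 bp away from 58 wide peaks, or 12.3%, and from 125 narrower peaks, or 3.28%. In each of the 3 lists the smallest gap between any adjacent peaks was 200 bp, so the lists hold no closer pairs. Whether stretches that were closer than this had been joined into wide peaks was not tested on reads.

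**Figure D4:**
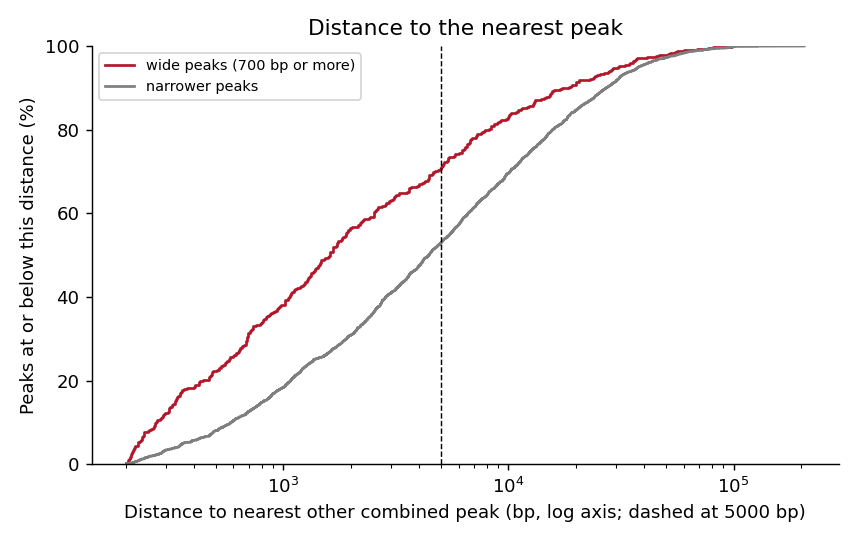
Cumulative share of wide and of narrower combined peaks by the distance to the nearest other peak, in bp on a log axis, with a dashed line at 5000 bp. At that line the curve of wide peaks stands at 70.6% and that of narrower peaks at 52.8%.

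The share with a neighbour was higher in wide peaks in each range of ranks, but in some ranges the intervals overlapped. Among peaks of ranks 101 to 500, 72.9% of 133 wide peaks had a neighbour within 5 kb (64.5 to 80.3) and 55.1% of 267 narrower peaks did (48.9 to 61.1). Below rank 2000 the shares were 72.5% of wide peaks (60.4 to 82.5) and 52.0% of narrower peaks (49.9 to 54.1). At ranks 501 to 1000 they were 72.3% of wide peaks (62.5 to 80.7) and 57.0% of narrower peaks (52.0 to 61.9). The intervals overlapped at ranks 1 to 100, with 69.6% of wide peaks (58.2 to 79.5) and 57.1% of narrower peaks (34.0 to 78.2), and at ranks 1001 to 2000, with 64.8% of wide peaks (53.9 to 74.7) and 52.3% of narrower peaks (48.9 to 55.5). By chromosome, the share in wide peaks was highest on V, 86.3% (76.7 to 92.9), where narrower peaks had 68.9% (66.4 to 71.4). It was lowest on II, 55.8% (44.1 to 67.2), where narrower peaks had 34.6% (29.6 to 39.7). Wide peaks had the higher share on every chromosome, although on X the intervals met, at 63.2% (53.3 to 72.4) in wide peaks and 51.4% (47.6 to 55.3) in narrower peaks.

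Wide peaks often lay near other wide peaks. A second wide peak lay within 5 kb of 173 wide peaks, or 36.8% (32.4 to 41.3), and a wide peak lay within 5 kb of 387 narrower peaks, or 10.2% (9.22 to 11.2). Where a wide peak had neighbours, it was the strongest of them in 200 of 332 cases, or 60.2% (54.8 to 65.5). Narrower peaks were the strongest in 716 of 2011 cases, or 35.6% (33.5 to 37.7). With peaks closer than 5 kb joined, the 470 wide peaks fell into 361 of 2777 clusters, 138 were alone, and 78 clusters held more than 1 wide peak. The cluster with the most was V:10708430-10737030, 28601 bp long, with 6 wide peaks among 14. It holds V:10714256-10717870, the widest on V, and V:10711713-10714043, which ends 212 bp before it. Its wide peaks ranked from 41 to 686, and each had at least 1 replicate 1 peak. II:5320059-5341265, X:6736279-6750556 and II:6835544-6853375 held 5 wide peaks each. The wide peaks with the most neighbours were V:10721846-10723641, V:13376655-13377452 and V:9078042-9079265, each with 7 within 5 kb.

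The replicate lists were used to ask whether each wide peak was a single peak or several. In replicate 2 each wide peak was found, 467 as 1 peak and 3 as 2 peaks. Those 3 were V:1149782-1150707, X:12509239-12510788 and X:15274924-15277067, whose parts lay 262, 216 and 206 bp apart in replicate 2. In replicate 1, 362 of the 470 overlapped 1 peak, or 77.0% (72.9 to 80.8), 35 overlapped 2 peaks, or 7.45% (5.24 to 10.2), and 73 overlapped none, or 15.5% (12.4 to 19.1). Of 3807 narrower peaks, 1925 overlapped 1 replicate 1 peak, 2 overlapped 2 peaks and 1880 overlapped none. No region of either class overlapped more than 2 peaks of a replicate. A longer region can meet more peaks than a shorter one by its length alone.

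The 35 wide peaks split in replicate 1 had a median width of 1550 bp and a median strength of 25.6, against 917.5 bp and 19.2 for those with 1 replicate 1 peak. Of the 31 regions of 2000 bp or more 11 were split, or 35.5%, and of the 283 under 1000 bp 7 were, or 2.47%. On V 19 of 80 wide peaks were split, or 23.8% (14.9 to 34.6), against 1 of 72 on I, 5 of 77 on II, 1 of 65 on III, 4 of 70 on IV and 5 of 106 on X. Without V the split share of wide peaks was 4.10%. The gap between the 2 parts had a median of 248 bp, and in 24 of 35 it was under 300 bp. The split in most of these regions was thus little more than the smallest gap found in the lists. In 21 of the 35 neither part reached 700 bp in replicate 1, and in 10 both did.

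A few splits were long. In II:10541925-10550428, the widest region, replicate 1 had II:10541922-10543450 of 1529 bp and II:10546198-10549857 of 3660 bp, with 2747 bp between them. In V:7727779-7730988 the parts measured 973 and 711 bp and lay 1431 bp apart, and in V:19049097-19051767 they measured 744 and 621 bp and lay 1159 bp apart. In I:7079133-7084137 the parts measured 1079 and 2842 bp, with a gap of 317 bp. Its rank was 24 in the combined list, and the stronger part ranked 123 in replicate 1. By contrast II:5335265-5339486 was a single replicate 1 peak of 4108 bp, which covered 97.3% of it and ranked 32. IV:14619473-14623209 also met 1 replicate 1 peak, of 1815 bp, which covered 48.6% of it.

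Where a wide peak and a replicate 1 peak overlapped one to one, replicate 1 was usually narrower. There were 361 such wide peaks. Choosing peaks by their combined width itself favours a smaller width in another list, and favours wide partners for wide peaks. The widths below are therefore described and not tested. The width in replicate 1 had a median of 763 bp, and the median ratio of replicate 1 to combined width was 0.87 (middle 50% from 0.63 to 0.95). At 1920 narrower peaks the median ratio was 0.91 (0.83 to 0.97). The replicate 1 peak lay wholly inside 302 of the 361 wide peaks, or 83.7%, and was the wider of the pair in 20. Its width reached 700 bp in 225 of the 361, or 62.3% (57.1 to 67.3), and in 8 of the 1920 narrower peaks, or 0.417% (0.18 to 0.819). In 52 wide peaks, or 14.4%, and in 32 narrower peaks, or 1.67%, the replicate 1 width was under 50% of the combined width. The 10 strongest wide peaks kept their width, with 87.2% to 100% of each covered by 1 replicate 1 peak.

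**Figure D5:**
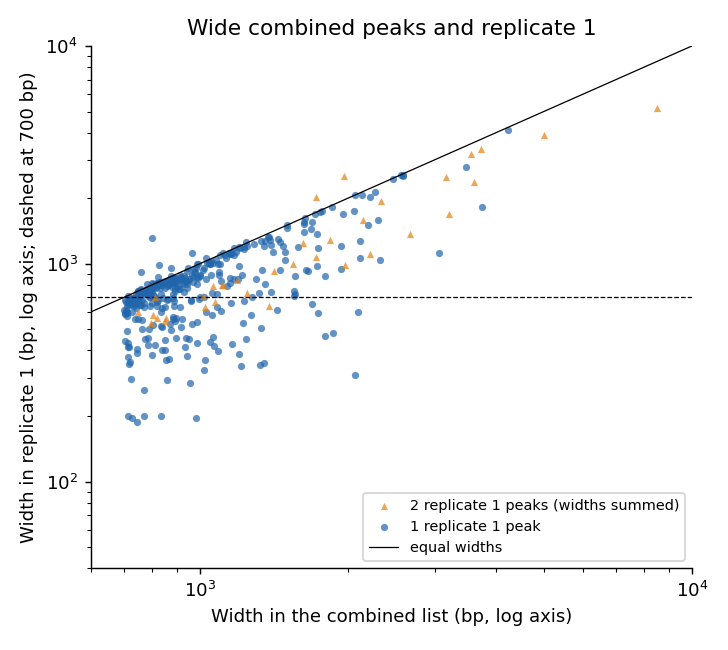
Width of each wide combined peak against the width of the replicate 1 peak or peaks that overlap it, in bp on log axes, for the 362 wide peaks with 1 such peak and the 35 with 2. Most points lie on or just below the line of equal widths, and the dashed line marks 700 bp in replicate 1.

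Seen from replicate 1, 259 of its 2370 peaks measured 700 bp or more, or 10.9% (9.70 to 12.3). Of these, 249 overlapped a wide combined peak and 9 overlapped only narrower ones. The remaining one, V:6220803-6230031, was the widest peak of replicate 1 at 9229 bp and its strongest, with q = 7.05e-246, and it met no combined peak. It is therefore not among the 470 regions. In the replicate 1 list alone, 68.0% of wide peaks and 19.8% of narrower peaks were in the strongest 25%. A neighbour within 5 kb was found for 60.2% of wide peaks and 38.5% of narrower peaks there.

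Wide peaks were found again in replicate 1 more often than narrower peaks over the list as a whole, in 84.5% (80.9 to 87.6) against 50.6% (49.0 to 52.2). The difference was 33.9 points, and in the strongest 50% of the list by q it was 3.19 points (0.0531 to 5.73). At ranks 501 to 1000, 96 of 101 wide peaks were found, or 95.05% (88.8 to 98.4), and 397 of 400 narrower peaks, or 99.3% (97.8 to 99.8). At ranks 1001 to 2000 the shares were 80.7% of wide peaks (70.9 to 88.3) and 87.2% of narrower peaks (84.8 to 89.3), and below rank 2000 they were 27.5% (17.5 to 39.6) and 20.3% (18.6 to 22.0). At like rank the intervals of both classes met. The combined list may contain reads of replicate 1, so these shares do not come from a separate experiment.

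The 73 wide peaks without a replicate 1 peak were weak, with a median strength of 5.99, against 20.1 in the 397 with one. Their median width was 866 bp, against 939 bp. They lay on I in 29 cases, on II in 17, on III in 10, on IV in 7, on X in 6 and on V in 4. On I only 43 of 72 wide peaks were found, or 59.7% (47.5 to 71.1). The share was 77.9% on II, 84.6% on III, 90% on IV, 94.3% on X and 95% on V. Narrower peaks on I were also found least often, in 34.7% (30.5 to 39.0), against 50.1% to 57.2% on the other chromosomes. Of the wide peaks down to rank 1000, 6 were missing from replicate 1, and 4 of these were on I. The strongest was I:5310889-5312355, 1467 bp, with q = 5.45e-20 and rank 473. The widest without a replicate 1 peak were II:11619027-11620797 at 1771 bp and II:6843718-6845312 at 1595 bp, with q of 3.18e-05 and 2.16e-06, and I:5310889-5312355 came after them.

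Each chromosome had a strongest wide peak that was also found as a single peak in replicate 1. Outside X, whose strongest is given above, these were IV:14032434-14034702 with q = 1.59e-139, V:9730812-9732313 with 1.31e-125, III:4281479-4282710 with 8.75e-102, I:4171897-4172644 with 7.18e-101 and II:5543277-5544434 with 8.61e-98. Their widths ran from 748 bp on I to 2269 bp on IV. Replicate 1 covered 93.9% to 99.8% of each. They ranked 12 to 21 in the combined list and 14 to 28 in replicate 1. The strongest peaks of IV, II and I had no other peak within 5 kb, while that of V had 2 and that of III had 1.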

How the data were processed

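JUN-1::GFP ChIP-seq of L1 larvae was analysed from 3 peak lists, for ChIP replicates 1 and 2 and for both combined. Per the file headers and source columns, the authors called peaks with PeakSeq on WormBase WS180. The deposited value of each peak is 1 q-value, used here as -log10 q and as a rank within its list. The PeakSeq version, aligner, filters, thresholds and the way the lists were combined were not given in the sources used here. No list of the 2 inputs was analysed. Depth is unknown, so the precision it gives the q-values was not assessed.

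Peaks of 700 bp or more were taken from the combined list. Overlap needed 1 bp, and neighbours were counted within 5 kb, edge to edge. Intervals of shares are exact (Clopper-Pearson) and those of differences are Newcombe intervals, at 95%. The regions and comparisons were chosen with earlier results of these data known. Named regions were the 10 widest, the 10 strongest, the widest and strongest on each chromosome, the 5 weakest, the 3 widest without a replicate 1 peak, the 3 with most neighbours and the 3 on either side of the limit. Other named regions were chosen after their values were seen. Gene names and sequences were not used here, since the gene table is of another build, WBcel235. In 600 simulated peaks, width class, overlaps and neighbours were all recovered. The simulated widths, overlaps and distances were set away from the limits, so only clear cases were checked. Computations used Python 3.11.15, numpy 2.4.6, pandas 2.3.3, scipy 1.17.1 and matplotlib 3.10.9.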

Additional observations from a re-analysis of the deposited data

How the results depend on the processing

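The 8 shares that compare wide with narrower peaks were recomputed under 64 alternatives, 63 of them planned, as differences in percentage points. No difference changed sign, and 44 stayed within the interval of the main value. Some of the 44 could hardly move. The alternatives on peaks identical to replicate 2, and on the replicate 2 list in place of the combined list, reuse most of its peaks. Main values beyond those in the report were 48.4 for the strongest 25%, 7.39 for several replicate 1 peaks and 61.9 for a wide partner. With a limit of 1000 bp the difference was -13.0 points for V, 23.2 for neighbours within 5 kb, 56.6 for the strongest 25%, 14.8 for regions covering several replicate 1 peaks and 52.8 for a wide partner in replicate 1. With 600 bp that for the strongest 25% was 41.7. In the strongest 50% of the list it was 36.0 for the strongest 25% of the peaks kept and 3.19 for recovery in replicate 1. Without chromosome V it was 0.36 for X, 23.2 for neighbours, 43.5 for the strongest 25% of the peaks kept and 4.10 for several replicate 1 peaks. Clusters gave -10.4 for V and 9.99 for centres. A distance of 2 kb gave 25.7 for neighbours, and the strongest 10% gave 35.9. The cause of these shifts was not tested.

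A replicate was left out by applying the rule to the other replicate's list. The replicate 1 list gave 11.2 for X, -20.2 for V, 3.95 for centres, 21.8 for neighbours and 48.2 for the strongest 25%. The replicate 2 list gave 5.61, -17.5, 4.06, 17.7 and 48.3 in the same order. It nearly repeats the combined list, so its values are no separate check. Set against replicate 2 in place of replicate 1, the differences were 0.683 for recovery, 0.638 for several peaks and 99.8 for a wide partner, since the combined list nearly repeats replicate 2. No paired analysis was possible because ChIP and input share replicate numbers but only ChIP has peak lists here, and no result comes from a test. Depth is unknown, so the strength below which replicate 1 could not show a wide peak was not determined.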
